A study of Mus musculus with 144 samples.

Results

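Polysomal RNA of wild-type mouse liver was compared between 2 times of day, zeitgeber time ZT02 and ZT14, which are 2 h and 14 h after lights on. The rule took the 6 libraries labelled polysomal RNA and ZT02 and the 6 labelled polysomal RNA and ZT14, 12 of the 144 libraries of the series. The study sequenced the 3′ ends of liver mRNAs over the day with the QuantSeq kit, which starts each read close to the poly(A) tail. Besides polysomal RNA it holds wild-type total and nuclear RNA, and total RNA from Bmal1-/- animals. Both polysomal groups came from male C57BL/6J mice of wild-type genotype that had food and water at all times in a cycle of light and dark. The labels give no age, and they do not say whether replicates were separate animals, so p-values measure the spread between these samples. Frozen tissue was crushed in a buffer with cycloheximide, which holds ribosomes on mRNA, and the polysomal fractions of a sucrose gradient were collected. Monosomal fractions were not analysed here.

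Polysomes are mRNAs that carry several ribosomes, so a level in this fraction reflects both how much of an mRNA there is and what share of it is being translated. In liver, the circadian clock is a feedback loop. CLOCK or NPAS2 pairs with BMAL1 (encoded by Arntl) and activates genes through E-box sequences, among them the Per and Cry genes, whose proteins inhibit the pair, and Nr1d1 and Nr1d2, whose proteins repress Arntl. The factors DBP, TEF and HLF, and their antagonist NFIL3, carry the rhythm to many metabolic genes through D-box sequences. ZT02 lies early in the rest phase of the mouse and ZT14 early in its active and feeding phase.

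The 12 libraries held between 2578048 and 8427601 gene counts each. Levels are in CPM, in which the gene counts of each library are scaled to the same total. No 2 libraries held identical counts (0 of 30 pairs compared inside the groups). Markers of hepatocytes were abundant in every library, with a summed level of the 15 listed genes between 35360 and 83860 CPM. A few libraries stood apart. Genes of the exocrine pancreas summed to 9857 CPM in ZT02 replicate 3 and to between 8.66 and 45.4 CPM in the other 11. Lung genes summed to 986 and 99.1 CPM in replicate 1 of ZT02 and ZT14, and to at most 2.4 CPM elsewhere. The library labelled ZT14 replicate 3 was the shallowest. Its mean correlation with the other 11 libraries was the lowest, at 0.871 against 0.876 to 0.921 for the others. For 16 of 19 clock genes it lay outside the range of the other 5 ZT14 libraries. How often it did so over all tested genes was not counted. Results are given with all 12 libraries and, where a call or value changes, without that library. Leaving it out was chosen after seeing the data.

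Few genes passed the test between the times, and clock genes were among those with the largest changes. With edgeR's quasi-likelihood test and Benjamini-Hochberg adjustment at 0.05, 51 of 10624 tested genes were called (0.48%). Of these, 35 were higher at ZT14 (0.329%) and 16 were lower (0.151%), and 49 of 51 differed by at least 2-fold. In all, 993 genes had an unadjusted p below 0.05. The largest rises were those of Dbp and Usp2, and the largest fall was that of Rfx4. Rfx4 averaged only 13.5 counts per library, and its call was lost without ZT02 replicate 3 (adjusted p 0.071). The ZT02 and ZT14 values did not overlap for 27 of the 51, against 1.05% of all tested genes. Without the library labelled ZT14 replicate 3, the values of 48 of the 51 did not overlap, against 2.67% of all tested genes.

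The number of calls depended on single libraries. Without the library labelled ZT14 replicate 3, 203 genes were called (1.91%), 103 higher and 100 lower, and these held all 51. Among the 6 ZT14 values of a called gene, that library had the one nearest to the ZT02 values for 38 of 51. The same count over all tested genes was not made, so it is not known whether this is particular to the called genes. Without ZT02 replicate 3, the library with pancreas genes, 37 genes were called (0.348%), of which 33 were among the 51. Without both libraries of replicate 1, 2, 4, 5 or 6 the count lay between 19 and 26, and without both of replicate 3 it was 185. In each of these fits all 51 genes kept their direction. A set of 15 of the 51 was called in all 8 of these fits: Dbp, Usp2, Per1, Per3, Tef, Wee1, Upp2, Por, Tsku, Cyp7a1 and Nrep among the rises, and Rnf125, Egr1, 8430408G22Rik and Efna1 among the falls. The rest of the 51 lost their call in at least 1 of the 8. Among them, Nr1d1 was called in 3 and Nr0b2, Fkbp5, Fmo2 and Slc16a12 in 4. Hlf was called in 5, Noct and Tubb2a in 6, and Arntl in 7.

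**Figure D1:**
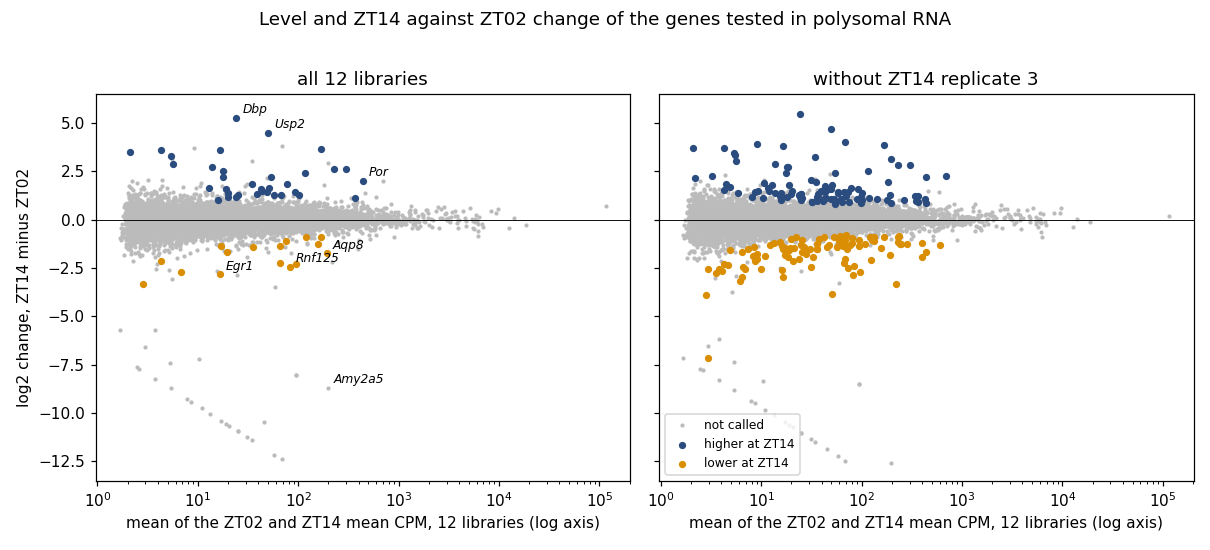
Each point is a gene tested in polysomal RNA, with the mean of its ZT02 and ZT14 mean CPM on a log axis (x) and its log2 change, ZT14 minus ZT02 (y). With all 12 libraries (left) 35 genes were called higher and 16 lower. Without the library labelled ZT14 replicate 3 (right) 103 were called higher and 100 lower, and most of the uncalled points far below 0 in both panels are listed pancreas genes such as Amy2a5. The called point far below 0 on the right is Npas2, whose fitted change rests on counts of 0 and is no measure of size.

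**Figure D2:**
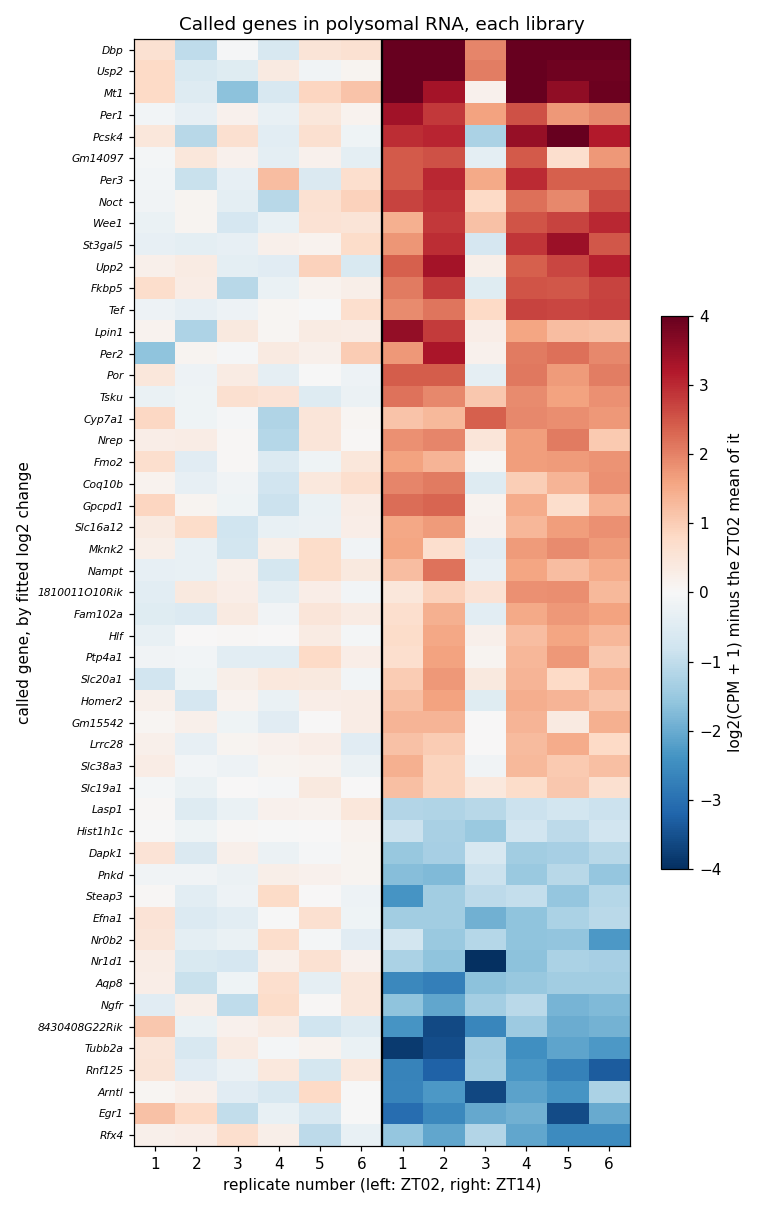
Rows are the 51 called genes in order of fitted change and columns are the 6 ZT02 and 6 ZT14 libraries. Colour is log2(CPM + 1) minus its ZT02 mean, limited to between -4 and 4. The column of ZT14 replicate 3 is paler than the other ZT14 columns for most rows, and stronger for Nr1d1, Arntl and Cyp7a1.

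Of the activating limb of the clock, Arntl fell with all 12 libraries. Arntl, which encodes BMAL1, ran from 6.94 to 20.5 CPM at ZT02 with a median of 11.7 CPM, and from 0 to 4.14 CPM at ZT14 with a median of 1.46 CPM. The groups did not overlap, and Arntl fell by 2.70 on the log2 scale (SE 0.458, adjusted p 0.00515). Clock, its partner, ran from 39.7 to 68.1 CPM at ZT02 with a median of 42.7 CPM. At ZT14 it was at 14 to 25.4 CPM in 5 libraries and at 43.4 CPM in replicate 3. Its log2 change was -0.91 (adjusted p 0.167), and -1.26 (adjusted p 0.0019) without that library. Npas2, a relative of Clock, ran from 1.33 to 5.58 CPM at ZT02 and was at 0 counts in 5 ZT14 libraries, but at 14.4 CPM in replicate 3. It did not pass with all 12 libraries (log2 change -0.50, adjusted p 0.96) and was called without that library (adjusted p 0.000443).

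The Per genes, repressors of the loop, rose together. Per1 ran from 0.267 to 1.19 CPM at ZT02 with a median of 0.622 CPM, and from 3.88 to 15.6 CPM at ZT14 with a median of 6.71 CPM. Its log2 change was 3.60 (SE 0.475, adjusted p 0.000468), with no overlap. Per3 ran from 0 to 3.32 CPM and from 4.27 to 14 CPM, again with no overlap (log2 change 3.31, SE 0.569, adjusted p 0.0058). Per2 ran from 1.18 to 12.4 CPM at ZT02 and from 21.4 to 63.6 CPM in 5 ZT14 libraries, with replicate 3 inside the ZT02 range at 6.59 CPM. Its log2 change was 2.22 (SE 0.458, adjusted p 0.0394), and its call was lost without ZT02 replicate 3 (adjusted p 0.102). The Cry genes, the partners of PER, were not called. Cry1 had medians of 22.2 CPM at ZT02 and 20.5 CPM at ZT14 (log2 change 0.23, adjusted p 0.918), and its sign turned without the library labelled ZT14 replicate 3 (-0.16). Cry2 had medians of 12.5 and 19.6 CPM (log2 change 0.83, adjusted p 0.207).

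The genes of the REV-ERB repressors had opposite signs. Nr1d1, which encodes REV-ERB alpha, ran from 17.7 to 44.3 CPM at ZT02 with a median of 32.9 CPM. At ZT14 it was at 8.46 to 11.4 CPM in 5 libraries and at 0.776 CPM in replicate 3, all below the ZT02 libraries. It fell by 1.68 on the log2 scale (SE 0.345, adjusted p 0.0266), and was called in 3 of the 8 fits that left libraries out. Nr1d2, which encodes REV-ERB beta, ran from 13.6 to 49.4 CPM at ZT02 and from 66.1 to 88.8 CPM in 5 ZT14 libraries, with replicate 3 below both ranges at 8.53 CPM. Its log2 change was 1.37 (adjusted p 0.231), and 1.57 (adjusted p 0.0023) without that library. Rora, which encodes an activator at the same elements, was not called (log2 change -0.29, adjusted p 0.807).

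The output factors rose, with the largest change at Dbp. Dbp ran from 0 to 2.12 CPM at ZT02 with a median of 1.43 CPM. At ZT14 it was at 39.1 to 104 CPM in 5 libraries and at 6.98 CPM in replicate 3, all above the ZT02 libraries (log2 change 5.25, SE 0.585, adjusted p 0.000475). Tef ran from 30.7 to 62.4 CPM and from 67.5 to 262 CPM (log2 change 2.39, SE 0.280, adjusted p 0.000134), also without overlap. Hlf had the smallest change of these factors, with medians of 62.6 CPM at ZT02 and 151 CPM at ZT14 (log2 change 1.28, SE 0.230, adjusted p 0.00816). Their antagonist Nfil3 had medians of 34.9 and 14.3 CPM and missed the threshold (log2 change -1.26, adjusted p 0.0579). It was called without the library labelled ZT14 replicate 3 (log2 change -1.42, adjusted p 0.0101). Bhlhe40, which encodes a repressor at E-boxes, had a ZT02 range of 5.73 to 39.2 CPM and a ZT14 range of 32.2 to 43.9 CPM (adjusted p 0.153). Bhlhe41 and Ciart were below the filter of a mean of 10 counts per library and were not tested. Of the 19 clock genes, 17 were tested, 6 rose, 2 fell and 9 did not pass. Over all tested genes 0.329% were called higher and 0.151% lower. The clock list had a median log2 change of 0.83 beside -0.0088 over all tested genes. Without the library labelled ZT14 replicate 3, 7 clock genes were higher and 5 lower, where 1.91% of all tested genes were called.

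**Figure D3:**
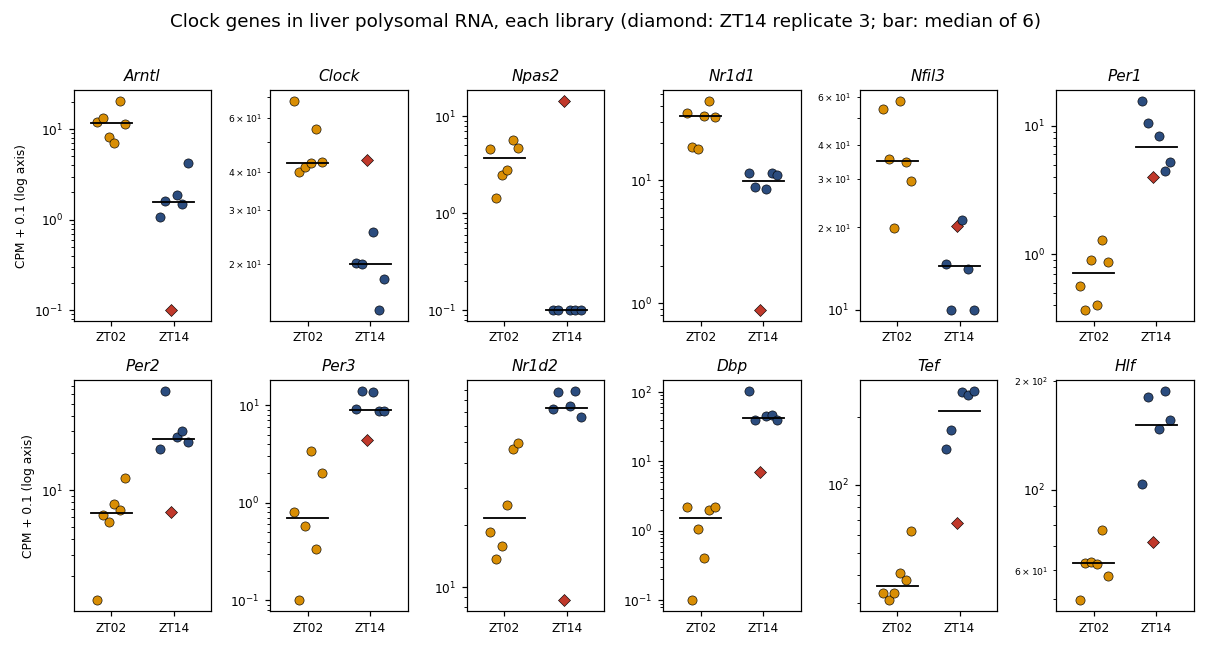
Each point is 1 library, with CPM + 0.1 on a log axis whose range differs between panels, for 12 clock genes at ZT02 and ZT14. Bars are medians of 6 libraries and the diamond is the library labelled ZT14 replicate 3. Arntl, Nr1d1, Per1, Per3, Dbp and Tef show no overlap between the times, and the diamond sits apart for Npas2, Nr1d2 and Nr1d1.

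The library labelled ZT14 replicate 3 had levels of some clock genes nearer to those of other polysomal times. Its Dbp level of 6.98 CPM compares with a median of 42.3 CPM at ZT14, 5.53 CPM at ZT18 and 2.35 CPM at ZT22. Its Nr1d2 level of 8.53 CPM compares with medians of 73.6, 31.3 and 9.39 CPM at ZT14, ZT18 and ZT22, and its Cry1 level of 46.2 CPM with 20.5, 29.1 and 41.8 CPM. Its Arntl count of 0 does not follow that order, since the medians were 1.46, 5 and 9.65 CPM, and the ZT10 median was 0. Its Clock level of 43.4 CPM compares with 42.7 CPM at ZT02, 22.5 CPM at ZT18 and 38.7 CPM at ZT22. At ZT02, ZT06 and ZT10 the medians were 1.43, 34.25 and 119.7 CPM for Dbp. They were 21.6, 115.3 and 131.6 CPM for Nr1d2, and 22.2, 6.57 and 6.59 CPM for Cry1. Its Npas2 level of 14.4 CPM was above the median of every polysomal time, the highest being 3.6 CPM at ZT02. Its Bhlhe40 level of 34.9 CPM was near the ZT14 median of 34.5 CPM. What part the depth of this library has in these values was not tested.

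The promoters of several called genes hold the sequences through which these factors act, and they are shown because the genes moved between the times in the deposited counts. Windows searched run from 250 bases before to 50 bases after the start of a gene and were taken from RefSeq, build GRCm38.p6. A promoter was found for 25 of the 35 genes that rose and 12 of the 16 that fell. The E-box CACGTG, which reads the same on both strands, was in 6 of the 25 and 3 of the 12, beside 12.0% of tested genes with a promoter. The D-box TTATGTAA, searched on both strands, was in 3 of the 25 (Per3, Coq10b and Slc16a12) and in 0 of the 12, beside 0.734% of tested genes. The core TAGGTCA of the element bound by ROR and REV-ERB was in the promoter of Arntl and in 0 of the 25, beside 2.63% of tested genes. TGGGTCA, its other form, was in 1 of the 25 (Homer2) and 0 of the 12, beside 4.0%. In the following windows, written 5′ to 3′ on the strand of the gene, capitals mark the E-box and the D-box on either strand. Each printed stretch is the part of the window around the matches, and for Tef 1 of its 2 starts is shown.
Per1 (chr11:69098743-69098828, plus strand): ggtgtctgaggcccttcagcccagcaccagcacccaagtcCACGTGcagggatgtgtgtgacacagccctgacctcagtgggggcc
Per3 (chr4:151044776-151044910, minus strand): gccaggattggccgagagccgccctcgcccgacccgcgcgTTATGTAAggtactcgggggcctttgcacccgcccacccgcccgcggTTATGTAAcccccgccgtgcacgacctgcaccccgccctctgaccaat
Tef (chr15:81802506-81802591, plus strand): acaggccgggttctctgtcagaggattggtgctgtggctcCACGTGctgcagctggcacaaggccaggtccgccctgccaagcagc
Fkbp5 (chr17:28486273-28486358, minus strand): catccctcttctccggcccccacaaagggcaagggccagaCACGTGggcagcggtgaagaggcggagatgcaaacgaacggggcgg
Coq10b (chr1:55052568-55052737, plus strand): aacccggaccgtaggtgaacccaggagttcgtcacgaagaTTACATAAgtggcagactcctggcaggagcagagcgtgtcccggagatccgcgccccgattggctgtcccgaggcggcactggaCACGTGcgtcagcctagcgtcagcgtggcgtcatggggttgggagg
Slc16a12 (chr19:34747357-34747578, minus strand): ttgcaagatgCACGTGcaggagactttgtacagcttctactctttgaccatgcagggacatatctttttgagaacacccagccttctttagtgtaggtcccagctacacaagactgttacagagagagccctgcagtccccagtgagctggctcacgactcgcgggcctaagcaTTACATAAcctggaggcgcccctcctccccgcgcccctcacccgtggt
Nr0b2 (chr4:133553141-133553226, plus strand): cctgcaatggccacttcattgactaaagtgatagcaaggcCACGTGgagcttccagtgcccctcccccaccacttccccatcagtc
Aqp8 (chr7:123462179-123462264, plus strand): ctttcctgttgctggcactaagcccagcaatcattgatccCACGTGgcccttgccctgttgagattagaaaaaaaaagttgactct

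Per3 carried 2 D-boxes, and Coq10b and Slc16a12 each had a D-box and an E-box in 1 window. The E-box stood in genes that rose (Per1, Tef and Fkbp5) and in genes that fell (Nr0b2 and Aqp8). A match describes letters in a window and was not tested as a binding site.

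Among the other rises, Usp2 changed most. Usp2, which encodes a ubiquitin-specific protease, ran from 2.4 to 8.01 CPM at ZT02 and from 20.6 to 182 CPM at ZT14 (medians 4.22 and 88.0 CPM, log2 change 4.49, SE 0.4, adjusted p 1.28e-05). Wee1, the kinase that restrains entry into mitosis, ran from 1.92 to 5.93 CPM and from 9.31 to 36.5 CPM (log2 change 2.73, adjusted p 0.000468). Tsku, which encodes a secreted leucine-rich protein, ran from 10.2 to 24 CPM and from 32.6 to 70.4 CPM (log2 change 1.87, adjusted p 0.000475). In all 3 genes each ZT14 library was above each ZT02 library.

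Genes of nucleotide, NAD and RNA metabolism were among the rises. Upp2, a uridine phosphorylase, had medians of 79.4 CPM at ZT02 and 485 CPM at ZT14 (log2 change 2.60, SE 0.392, adjusted p 0.00388). It was at 97.8 CPM in ZT14 replicate 3, inside the ZT02 range of 53.5 to 157 CPM. Nampt, the enzyme of NAD salvage, was named after its values were seen. It had medians of 48.6 and 129 CPM (log2 change 1.43, adjusted p 0.0264, and 0.0502 without ZT02 replicate 3). Noct, an enzyme of the deadenylase family, had medians of 1.14 and 10.4 CPM (log2 change 2.87, adjusted p 0.00644), and was the only called gene among 23 tested genes of deadenylation and poly(A) processing. Over all tested genes 0.48% were called. Without the library labelled ZT14 replicate 3, that list had 1 gene higher and 1 lower, where 1.91% of all tested genes were called.

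Genes known to respond to glucocorticoids and clock genes had the 2 highest medians of the lists of functions. Of 13 tested genes on the glucocorticoid list 4 rose, 0 fell and 9 did not pass. Over all tested genes 0.329% were called higher and 0.151% lower. The glucocorticoid list had a median log2 change of 0.89, beside 0.83 for the clock list, and 0.945 beside 0.953 without ZT02 replicate 3. Its summed level ran from 825 to 1293 CPM at ZT02 and from 1244 to 3143 CPM at ZT14. The lowest ZT14 value was that of replicate 3, and the other 5 ran from 1716 to 3143 CPM. Mt1, a metallothionein, ran from 6.23 to 48.1 CPM at ZT02, from 222 to 636 CPM in 5 ZT14 libraries and stood at 24.4 CPM in replicate 3 (log2 change 3.63, SE 0.666, adjusted p 0.0406). Fkbp5, a co-chaperone of the glucocorticoid receptor, had medians of 6.15 and 34.5 CPM (log2 change 2.49, adjusted p 0.00874). Lpin1, a phosphatidate phosphatase, had medians of 22 and 51.3 CPM (log2 change 2.22, adjusted p 0.0469), and its highest values were in ZT14 replicates 1 and 2, at 225 and 135 CPM. Por, which passes electrons to the microsomal cytochromes P450, had medians of 167 and 765 CPM (log2 change 2.00, adjusted p 0.0028). Mt1 and Lpin1 lost their call without ZT02 replicate 3 (adjusted p 0.0514 and 0.0951). The other metallothionein of the list, Mt2, missed the threshold (log2 change 3.80, adjusted p 0.0552), and was called without the library labelled ZT14 replicate 3 (adjusted p 9.3e-06).

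Bile acid synthesis held a called gene in each direction. Cyp7a1, the rate-limiting enzyme, ran from 14.2 to 60.8 CPM at ZT02 with a median of 34.2 CPM and from 75.3 to 180 CPM at ZT14 with a median of 120 CPM (log2 change 1.84, SE 0.299, adjusted p 0.00388). Nr0b2, which encodes SHP, a repressor of Cyp7a1, ran from 36.7 to 83.0 CPM and from 9.47 to 30.2 CPM (log2 change -1.40, SE 0.280, adjusted p 0.0234). Neither gene's groups overlapped. The list's other 15 tested genes did not pass, and its median log2 change was -0.092. Over all tested genes 0.48% were called. Without the library labelled ZT14 replicate 3, the list had 1 higher and 2 lower, where 1.91% of all tested genes were called.

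Further rises were Nrep, Fmo2 (a flavin monooxygenase) and Slc16a12 (a monocarboxylate transporter of the plasma membrane), with log2 changes of 1.65, 1.64 and 1.48 (adjusted p 0.00515, 0.0105 and 0.0237). Nrep had no overlap, with ZT14 replicate 3 at 33.8 CPM against a highest ZT02 value of 33.7 CPM. Fmo2 and Slc16a12 overlapped in ZT14 replicate 3 alone, at 6.59 and 25.2 CPM. St3gal5, the enzyme that makes the ganglioside GM3, and the amino acid transporter gene Slc38a3 were among the remaining rises and were named after their values were seen. St3gal5 had means of 67.9 and 388 CPM and Slc38a3 of 242 and 493 CPM (log2 changes 2.62 and 1.11, adjusted p 0.0252 for both). Both calls were lost without ZT02 replicate 3 (adjusted p 0.0725 and 0.0514). In ZT14 replicate 3, St3gal5 stood at 40.7 CPM, below every ZT02 library, and Slc38a3 at 219 CPM, inside the ZT02 range.

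The falls included an immediate early gene and genes of the cell surface and cytoskeleton. Egr1, an immediate early transcription factor gene, ran from 12.3 to 58.0 CPM at ZT02 with a median of 22.7 CPM and from 1.23 to 5.94 CPM at ZT14 with a median of 4.42 CPM (log2 change -2.82, SE 0.454, adjusted p 0.00515). It was the only gene called of 13 tested immediate early genes, beside 0.48% of all tested genes. The median log2 change of these 13 was -0.15. Rnf125, a ubiquitin ligase gene, ran from 82.1 to 191 CPM and from 12.4 to 50 CPM (log2 change -2.43, adjusted p 0.0028). Tubb2a, a beta-tubulin gene, ran from 100 to 221 CPM and from 10.2 to 57.4 CPM (log2 change -2.31, adjusted p 0.00644). How reads shared with its near copy Tubb2b were counted is not given in the sources used here. The gene 8430408G22Rik, named Depp1 by RefSeq, had medians of 99.4 and 21.8 CPM (log2 change -2.26, adjusted p 0.00515). None of these 4 genes had overlapping groups.

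Aqp8, a water channel gene of hepatocytes, ran from 153 to 452 CPM at ZT02 and from 41.5 to 108 CPM at ZT14 (medians 295 and 94.4 CPM, log2 change -1.73, SE 0.3, adjusted p 0.00624). Efna1, which encodes ephrin-A1, had medians of 86.5 and 34.5 CPM (log2 change -1.39, adjusted p 0.0038). Steap3, a reductase gene of iron uptake, had medians of 22.7 and 9.58 CPM (log2 change -1.37, adjusted p 0.0366). Pnkd had medians of 224 and 77.5 CPM (log2 change -1.26, SE 0.232, adjusted p 0.0103). The smallest of the named falls were those of Hist1h1c, a linker histone gene, at -0.92 (adjusted p 0.0237) and Lasp1, an actin-binding protein gene, at -0.89 (adjusted p 0.0457). In all 6 genes every ZT14 library was below every ZT02 library. The calls of Aqp8, Steap3, Pnkd, Hist1h1c and Lasp1 were each lost in at least 1 of the 8 fits that left libraries out.

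Several metabolic genes passed when the library labelled ZT14 replicate 3 was left out. They were named after their values were seen. Elovl3, an elongase of very long chain fatty acids, ran from 239 to 499 CPM at ZT02 and from 27.7 to 47.2 CPM in 5 ZT14 libraries, with replicate 3 at 246 CPM (log2 change -2.18, adjusted p 0.23 with all libraries, and -3.33, adjusted p 2.54e-07, without it). Clpx, a subunit of a mitochondrial protease, ran from 82.7 to 144 CPM and from 16.2 to 20.6 CPM in 5 ZT14 libraries, with replicate 3 at 124 CPM (adjusted p 5.83e-07 without it). Coq8a, of ubiquinone synthesis, was at 104 to 225 CPM, at 33.3 to 46.6 CPM and at 198 CPM in the same order (adjusted p 5.22e-06). In these 3 genes replicate 3 lay inside the ZT02 range.

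Ppp1r3c, which targets a phosphatase to glycogen, ran from 99.0 to 163 CPM at ZT02 and from 12.7 to 32.4 CPM in 5 ZT14 libraries, with replicate 3 at 93.1 CPM (adjusted p 5.25e-06 without it). Insig2, which retains sterol sensors in the endoplasmic reticulum, ran from 395 to 936 CPM and from 77.0 to 258 CPM, with replicate 3 at 370 CPM (adjusted p 0.00211). Alas1, the first enzyme of heme synthesis, ran from 22.3 to 85.5 CPM and from 133 to 862 CPM, with replicate 3 at 46.5 CPM (log2 change 3.12, adjusted p 0.00205). Thrsp, a gene of lipogenesis, ran from 139 to 564 CPM and from 839 to 2164 CPM, with replicate 3 at 150 CPM (log2 change 2.23, adjusted p 0.000772). Cish, an inhibitor of cytokine signalling, ran from 1.87 to 17.8 CPM and from 45.6 to 106 CPM, with replicate 3 at 3.88 CPM (log2 change 3.24, adjusted p 0.000117). With all 12 libraries none of these 5 passed (adjusted p 0.0617 for Alas1, 0.095 for Thrsp and 0.0959 for Ppp1r3c).

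Ribosomal protein genes, whose mRNAs begin with a terminal oligopyrimidine (TOP) tract and are regulated at translation, had mostly small positive log2 changes in polysomal RNA, and 0 of 79 passed. Their log2 changes were positive for 76 of 79, with a median of 0.49 and a range from -0.14 to 1.41, and 16 had an unadjusted p below 0.05. Over all 10624 tested genes 5197 were positive and 993 had an unadjusted p below 0.05. Taken library by library, the median of the ribosomal protein list had an SD of 0.588 over the 6 ZT14 libraries. The summed level of the 79 ran from 4510 to 8765 CPM at ZT02 and from 4069 to 12850 CPM at ZT14, so the groups overlapped. The lowest ZT14 value was that of replicate 3, and the other 5 ran from 6570 to 12850 CPM. Without that library 4 of 79 were called higher and 0 lower (1.91% of all tested genes were called there), with a median of 0.57. The most abundant members were Rplp1, with medians of 433 and 505 CPM (log2 change 0.32, adjusted p 0.719), and Rps14, with medians of 368 and 530 CPM (log2 change 0.71, adjusted p 0.283). In total RNA the median of the same 79 genes was 0.15, with 52 positive, and in nuclear RNA it was 0.010, with 41 positive. The difference of the change between polysomal and total RNA was positive for 72 of 79, and 0 passed the test of that difference. Many of these genes have processed copies in the genome, and how shared reads were counted is not given in the sources used here. The 21 other TOP mRNAs had a median of 0.25 and 34 ribosome biogenesis genes a median of 0.18, with 0 called in both. The 9 tested mitochondrially encoded transcripts were all positive in polysomal RNA, with a median of 0.48 and 0 called. Their median was -0.23 in total and -0.19 in nuclear RNA. The median difference between polysomal and total RNA was 0.49 for them and 0.44 for the ribosomal protein genes.

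Other lists of liver functions had few called members. Lipogenesis (16 tested), fatty acid oxidation and PPARA targets (24), cholesterol synthesis (24), glucose, glycogen and insulin genes (21), heat shock genes (23), endoplasmic reticulum folding genes (22) and amino acid and urea cycle genes (29) had 0 called, with medians between -0.23 and 0.18. Of 23 xenobiotic and heme genes Por alone rose, with a median of 0.22, and without the library labelled ZT14 replicate 3 there were 3 higher and 0 lower with a median of -0.009. In that fit, where 1.91% of all tested genes were called, the glucose list had 3 higher and 3 lower, lipogenesis 2 and 1, heat shock 2 and 1, and folding 1 and 1. The fatty acid oxidation list had 2 higher and 0 lower, the cholesterol list 0 higher and 1 lower, and the amino acid list 0 higher and 4 lower. Scd1, the desaturase of lipogenesis, had medians of 5322 and 4245 CPM (log2 change -0.47, adjusted p 0.845). Pck1, the gluconeogenic enzyme gene, had medians of 287 and 316 CPM (log2 change 0.92, adjusted p 0.434), and Gnmt, a glycine methyltransferase gene, of 2686 and 2903 CPM (log2 change 0.28, adjusted p 0.833). The 14 most abundant examples taken from 7 other lists (ribosome biogenesis, cholesterol, fatty acid oxidation, heat shock, folding, ATF4 targets and acute phase) had log2 changes between -0.42 and 0.59. None of those 14 passed by edgeR, and the sign of some turned when a library was left out. The ATF4 (12 tested) and acute phase (20 tested) lists had 0 called and medians of -0.12 and -0.10, the latter 0.025 without the library labelled ZT14 replicate 3. The cold-inducible RNA-binding genes Rbm3 and Cirbp did not pass (log2 changes 0.90 and -0.32).

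**Figure D4:**
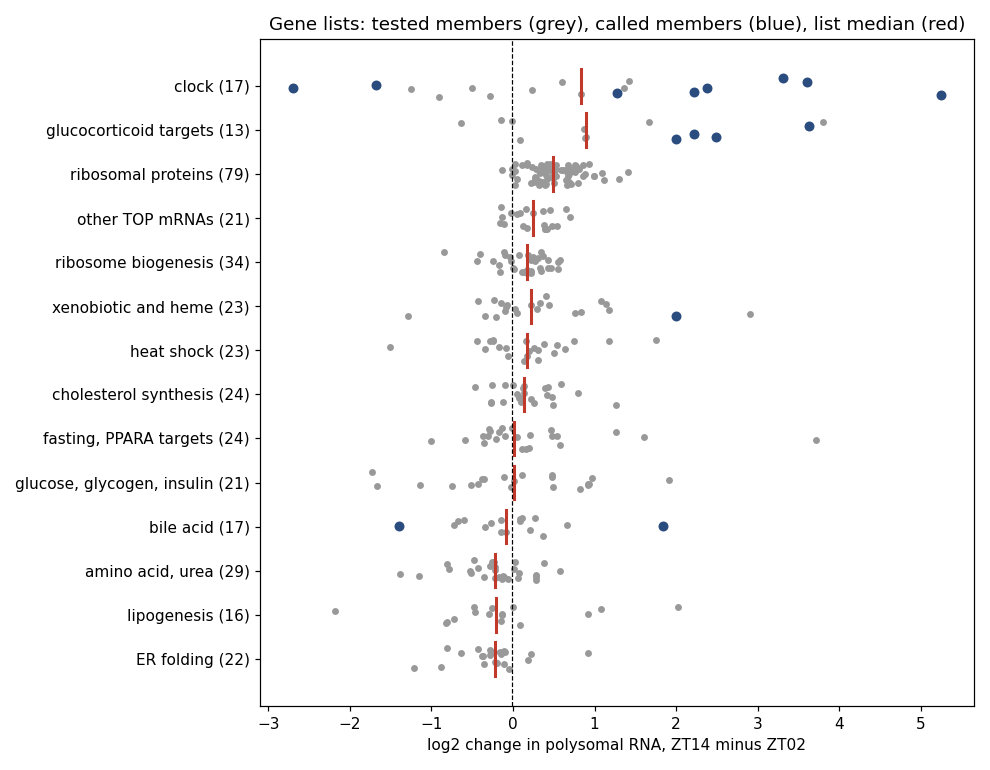
Log2 change, ZT14 minus ZT02 (x), of the tested members of 14 gene lists, with the number tested in brackets. Grey points were not called, blue points were called, red bars are list medians and the dashed line is the median of all tested genes. The ribosomal protein points lie mostly right of the dashed line without a call, and called points are in the clock, glucocorticoid, xenobiotic and bile acid lists.

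Nearly all called genes had the same sign of change in the other RNA fractions. In total RNA of the same times (6 against 6 libraries) 207 of 12016 genes were called (1.72%), and in nuclear RNA 69 of 11279 (0.612%). All 51 polysomal calls had the same sign in total RNA, where 37 were also called, and 50 had it in nuclear RNA, where 26 were called. The exception in nuclear RNA was Rfx4, a gene of low counts, with a log2 change of 0.36 (SE 1.02) there. In total RNA it stood at -1.04 and was not called (adjusted p 0.525). The difference in change between fractions was tested as an interaction. Between polysomal and total RNA 0 of 11565 genes passed (0%), with 405 at an unadjusted p below 0.05 and 0 called by DESeq2 (487 unadjusted). Between polysomal and nuclear RNA 0 of 11259 passed (0%), with 358 unadjusted and 0 called by DESeq2 (403 unadjusted). These counts stayed at 0 without the polysomal library labelled ZT14 replicate 3. All total and nuclear RNA libraries stayed in that fit. Clock genes were uneven in total RNA at ZT14 too. Npas2 had a mean of 1.06 CPM there, with an SD of 2.45 and a median of 0.0548 CPM. Nr1d2 had a mean of 45.9 CPM with an SD of 21.6. Fits without single total or nuclear RNA libraries were not run. A p that misses the threshold does not show that the fractions changed alike. Single genes differed in the order of the fractions. Dbp had log2 changes of 5.25 in polysomal, 4.20 in total and 3.17 in nuclear RNA (SE 0.585, 0.592 and 0.557). Per2 had the reverse order, with 2.22, 2.71 and 3.32 (SE 0.458, 0.269 and 0.344). Neither gene passed the test of the difference.

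**Figure D5:**
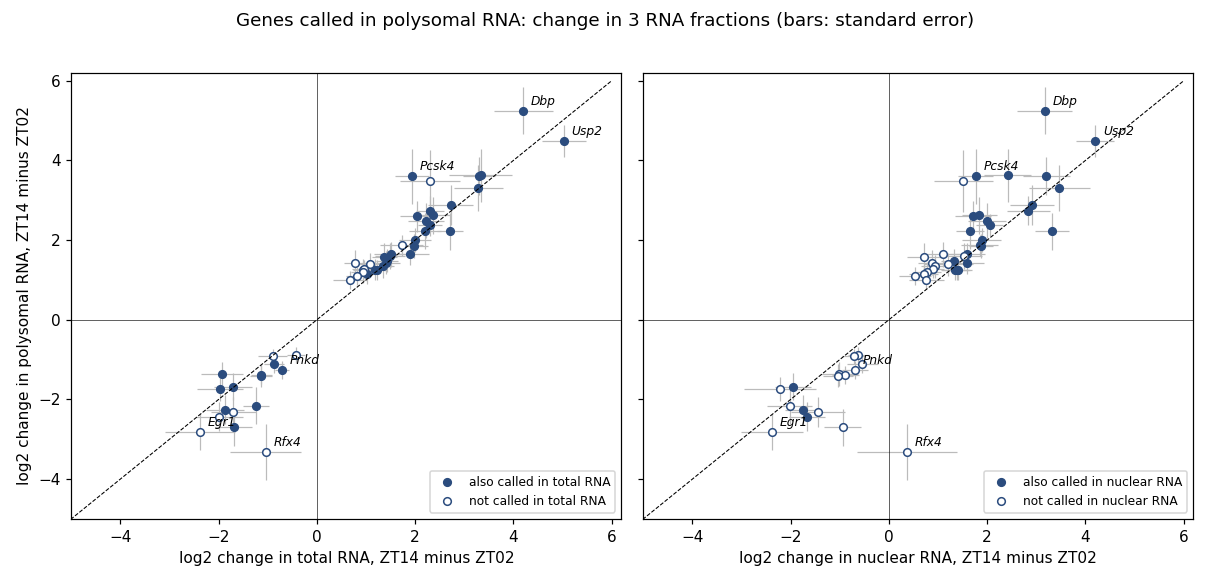
Log2 change, ZT14 minus ZT02, of the 51 called genes in polysomal RNA (y) against total RNA (x, left) and nuclear RNA (x, right), with standard errors as bars and the line of equal change dashed. Filled points were also called in the other fraction, 37 in total RNA and 26 in nuclear RNA. The sign is shared for all 51 in total RNA and for 50 in nuclear RNA, where Rfx4 differs.

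At the level of polyadenylation sites, 43 of 16373 tested sites were called (0.263%), 32 higher and 11 lower. Of these, 41 were given to 30 genes, and 24 of these genes were called at gene level too. For 90 of 91 tested sites of called genes the sign matched that of the gene. Sites and genes were counted in the same libraries, and sites were matched to genes partly by counts. These matches are therefore no independent support. Dbp had 2 called sites on chromosome 7, at 45709862 to 45709997 and at 45710015 to 45710158, in the positions of the authors' site list. They rose from 0.332 to 18.8 CPM and from 0.865 to 30.1 CPM in the means. Usp2 had 3 on chromosome 9, with log2 changes of 5.20, 4.67 and 3.98. Clock had a called site at 76210963 to 76211013 of chromosome 5 (13.8 CPM at ZT02, 4.08 CPM at ZT14, log2 change -1.76, adjusted p 0.0348) although its gene count did not pass. Sites of Mt2, Alas1, Cish, Onecut1 and Phlda1 were also called where their genes were not. Without the library labelled ZT14 replicate 3, 139 sites were called, 72 higher and 67 lower.

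No change in the choice of site was detected. Usage, the percent of a gene's site counts that fall on a given site, could be tested for 10694 sites in 3618 genes, and 0 were called by edgeR (0%), with 310 at an unadjusted p below 0.05. The splicing test of edgeR also called 0 (120 unadjusted). The site with the smallest p was in Pnkd, at 74287198 to 74287456 of chromosome 1, with a share of 5.83% ± 1.90 at ZT02 and 21.8% ± 10.6 at ZT14 (SD, n = 6 each, adjusted p 0.926 by edgeR). Its share in ZT14 replicate 3 was 7.19%, and without that library the adjusted p was 0.0843. The more distal site of Pnkd, at 74353516 to 74353692, held 90.5% ± 1.94 and 75.2% ± 11.4 of the counts (SD, n = 6 each).

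Pancreas genes had their counts almost all in 1 library. Of the 32 listed genes 29 had a count in ZT02 replicate 3, and 20 had 0 counts in the other 11 libraries. Amy2a5, pancreatic amylase, stood at 2365 CPM there and at most at 7.37 CPM elsewhere. Cela2a and Ctrc, pancreatic proteases, stood at 1129 and 1126 CPM, and at most at 2.68 CPM elsewhere. The 23 pancreas genes that passed the filter did so mostly through that library, and 0 were called. Without it their median fitted log2 change was 0. Lists of other cell types held 0 called genes. They were Kupffer cells and macrophages (12 tested), endothelial cells (11), stellate cells and fibroblasts (7), lymphoid cells (2) and erythroid cells (5). Of 10 lymphoid markers only those 2 passed the filter, with a median log2 change of -1.29. All 10 summed to 13.6 to 96.25 CPM at ZT02 and 2.33 to 34.7 CPM at ZT14. The 7 cholangiocyte markers summed to 25.6 to 81.5 CPM at ZT02 and 13.3 to 36.5 CPM at ZT14. Of these, Krt19, Krt7, Epcam and Cftr were among those below the filter. Sox9 had medians of 37.2 CPM at ZT02 and 12.3 CPM at ZT14. It was called lower without the library labelled ZT14 replicate 3 (adjusted p 0.000967, against 0.0944 with it). The sum of the 7 markers had medians of 45.7 and 16.4 CPM, so it was mostly Sox9 and is not a separate observation. The other tested cholangiocyte marker had a log2 change of -0.39 with all 12 libraries and was not called. Fewer cells of a type and less RNA per cell cannot be told apart in these bulk samples.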

How the data were processed

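The members and gene lists were chosen with earlier results of these data known. The authors deposited whole-number counts per gene and per polyadenylation site, not normalized. Per the submitters' processing notes, STAR 2.4.2a, edgeR and HOMER were used with mm10 and GRCm38.p5. How reads that match several genes were counted is not given in the sources used here. The gene table carries no strand, so overlapping and antisense genes cannot be told apart.

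Genes and sites averaging 10 or more counts over the 12 libraries were tested with edgeR 4.0.16 (TMM, robust quasi-likelihood F test, Benjamini-Hochberg, threshold 0.05) in R 4.3.3 with 6 against 6 libraries. The change is ZT14 minus ZT02. Fractions were compared by an interaction term. Standard errors are those of the log2 change. Sites were matched to genes by position and by their counts. Usage was tested as a site's change against the rest of its gene. The pipeline was tested on simulated data. Alternatives were other scaling, filters, DESeq2, a replicate block, left-out libraries, and fits within replicates 1 to 3 and 4 to 6.

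Named genes were the clock list, the 12 largest rises and 12 largest falls among calls that held without ZT02 replicate 3 with a mean of at least 50 counts, up to 4 called or 2 most abundant members of each list of functions, and the 3 most abundant of each marker list. Others are marked as named after their values were seen, as are all genes first called without ZT14 replicate 3. Library depth ran from 2578048 to 8427601 gene counts. Some items are not reported here.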

Additional observations from a re-analysis of the deposited data

Results flagged for a closer look

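Of 182 groups of 6 values, 19 held a highest or lowest library whose gap to the next was large for the range of its group (Dixon's criterion at 95%), and chance flags about 1 in 20 groups. The library labelled ZT14 replicate 3 accounts for 10. Its Nr1d1 level was 0.776 CPM (nearest other 8.46), Nr1d2 8.53 (66.1), Npas2 14.4 (0), Cry1 46.2 (22.3), Dapk1 65.9 (47.2), Rnf125 50 (25.9) and Fmo2 6.59 (17.6). Its summed levels were 4940 CPM for fatty acid oxidation and PPARA targets (nearest 8550), 35400 CPM for hepatocyte markers (57700) and 36.5 CPM for cholangiocyte markers (19.2).

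Summed pancreas markers stood at 9860 CPM in ZT02 replicate 3 (nearest 40.3). Summed lung markers stood at 986 CPM in ZT02 replicate 1 (nearest 2.4) and 99.1 CPM in ZT14 replicate 1 (nearest 1.05). Summed mitochondrially encoded transcripts stood at 47100 CPM in ZT14 replicate 5 (nearest 30500). At ZT02, single genes that stood apart were Slc19a1 in replicate 5 at 14.6 CPM (nearest 11), Lpin1 in replicate 2 at 7.47 CPM (19.6), Tef in replicate 6 at 62.4 CPM (40.7), Steap3 in replicate 4 at 41.9 CPM (25) and Nrep in replicate 4 at 10.3 CPM (25.1).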

How the results depend on the processing

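Calls moved with the libraries and the model more than with scaling, and the cause was not tested. Of genes, 51 were called, 82 with every gene of at least 1 count, 154 by DESeq2, 0 within replicates 1 to 3 by edgeR (368 at an unadjusted p below 0.05, and DESeq2 was not run there), 140 within replicates 4 to 6, 203 without ZT14 replicate 3, and 19 to 185 when both libraries of a replicate number were left out. Of sites, 43 were called, 151 by DESeq2, 0 within replicates 1 to 3 by edgeR (416 unadjusted), 139 without ZT14 replicate 3, and 10 to 124 without a replicate number. Of distinct genes on the lists of functions, 16 were called, 50 without ZT14 replicate 3, and 9 to 48 without a replicate number. Usage and both differences between fractions stayed at 0 in all alternatives run.

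The labels do not say that libraries of 1 number share an animal or batch. Correlations of their deviations ran from 0.0737 to 0.74 against a mean of -0.0564 for different numbers, and replicates 2, 3 and 5 correlated best with another number, so pairing was a hint from the data only. With a replicate block 139 genes, 80 sites and 35 list genes were called. Lpin1 was then not called (adjusted p 0.0786), and Nfil3 (0.0416), Bhlhe40 (0.019), Thrsp (0.0229), Sox9 (0.0277), Elovl3 (0.00253), Clpx (0.0037), Mt2 (0.0102), Insig2 (0.0105), Ppp1r3c (0.00117), Coq8a (0.0117), Phlda1 (0.00889) and Amy2a5 (0.00302) were called. The replicate block gave 347 genes and 285 sites without ZT02 replicate 3, and 343 genes and 274 sites without replicate 3.

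All 51 called genes kept their sign. Of uncalled genes named with their values here, 2 did not. Npas2 stood at -0.50 and at 0.97 within replicates 1 to 3. Cry1 stood at 0.23, at -0.14 within replicates 4 to 6, at -0.16 without ZT14 replicate 3, and from -0.14 to 0.43 without a replicate number. With the replicate block Cry1 stood at -0.12 without ZT02 replicate 3 and at -0.11 without replicate 3. Leaving out ZT14 replicate 3, and the block fit without replicate 3, were chosen after seeing the data. At this depth, changes in genes under a mean of 10 counts per library were not tested.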
